A study of Mus musculus with 16 samples.

Results

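β-catenin silencing in undifferentiated mESCs was examined in 4 of the 16 libraries of the series. They were the 2 libraries of mESCs transduced with shβcat #1, a short hairpin RNA against β-catenin, and the 2 of mESCs transduced with the control hairpin shCtrl. They were chosen by their labels. All were E14 mESCs of the 129/Ola strain, grown on gelatine in serum with LIF and kept undifferentiated, and the hairpins were introduced into young-passage cultures (YP-mESCs). DNA methylation was measured by reduced representation bisulfite sequencing (RRBS), in which a CpG-rich part of the genome is sequenced after bisulfite has converted unmethylated cytosines, so that the share of unconverted reads at a CpG is its methylation level. Only 1 hairpin was sequenced, the one with the strongest silencing of those the study made, so that an effect of this hairpin alone and an effect of β-catenin loss cannot be told apart. A CpG was used when its strands, summed, had at least 10 reads in all 4 libraries, which held for 915426 CpGs on mm9. The comparison asks whether methylation changes in mESCs that have lost β-catenin but have not differentiated, and where.

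β-catenin, encoded by Ctnnb1, links cadherins to the cytoskeleton at cell contacts and carries the canonical Wnt signal. Without a Wnt ligand it is phosphorylated by a complex of APC, AXIN and GSK3 and degraded. With a ligand it accumulates, enters the nucleus and works with TCF and LEF factors on target genes such as Axin2. CpG methylation is copied onto new DNA strands by DNMT1 with UHRF1, is placed de novo by DNMT3A and DNMT3B with DNMT3L, and is oxidised for removal by the TET enzymes. In mESCs most CpG islands at promoters lack methylation, most isolated CpGs carry it, and imprinting control regions (ICRs) carry it on 1 parental allele.

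The shCtrl libraries held 33040494 and 33207818 reads on CpGs, and the shβcat #1 libraries held 40344804 and 37521411, so that the silenced cells were sequenced more deeply. On the mitochondrial genome, where CpG methylation is close to absent, 0.274 to 0.339% of reads were methylated in the 4 libraries, which bounds failed conversion. No expression was measured in these files and the knockdown could not be checked in them. The methylation of Ctnnb1 itself does not test it. The Ctnnb1 promoter was 2.35% and 2.09% methylated in shCtrl and 2.47% and 2.38% in shβcat #1 over 119 CpGs. The promoters of 4 of 8 mESC markers had enough CpGs to be tested, with a median of 1.21% in shCtrl. None was called different by the quasi-binomial F test or with a shared overdispersion. In the F test 1 had an unadjusted p under 0.05, beside 998 of 14486 over all promoters. Pou5f1, the core pluripotency factor OCT4, was at 0.168% and 0% in shCtrl and 0.0575% and 0.470% in shβcat #1. The labels do not say that replicates were separate cultures, so p-values measure only the spread between these libraries, which may be technical. For windows this spread is one shared by windows of similar depth.

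A set of 4 of the 300 bp windows with the largest differences are shown first, because the values below rest on stretches like these. Each is reference sequence of mm9 (NCBIM37), + strand, 5′ to 3′, and capitals mark the CpGs measured with at least 10 reads in all 4 libraries. They were chosen after their values were seen. The first 3 were more methylated in shβcat #1 and the last less. They are an intron of Pvrl2, a cell adhesion molecule of the nectin family, at chr7:20319601-20319900, the promoter of Ncapg2, a condensin II subunit, at chr12:117642901-117643200, a stretch within 1 kb of the start of Fgf5, a growth factor expressed when naive cells turn to the primed state, at chr5:98683801-98684100, and an intergenic stretch 13925 bp from the start of Stac2, which encodes an adaptor of calcium channels, at chr11:97928701-97929000.
Pvrl2: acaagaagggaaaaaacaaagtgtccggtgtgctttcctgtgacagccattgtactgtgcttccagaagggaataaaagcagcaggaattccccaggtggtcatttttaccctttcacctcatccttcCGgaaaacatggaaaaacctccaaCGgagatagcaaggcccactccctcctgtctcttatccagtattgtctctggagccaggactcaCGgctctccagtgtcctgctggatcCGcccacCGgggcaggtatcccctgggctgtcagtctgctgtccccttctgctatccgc
Ncapg2: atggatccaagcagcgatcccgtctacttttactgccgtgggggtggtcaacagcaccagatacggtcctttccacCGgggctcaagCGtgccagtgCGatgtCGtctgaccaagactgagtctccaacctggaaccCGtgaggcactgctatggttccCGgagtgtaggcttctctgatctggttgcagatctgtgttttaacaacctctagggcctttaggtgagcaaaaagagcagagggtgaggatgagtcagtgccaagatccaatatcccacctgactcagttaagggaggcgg
Fgf5: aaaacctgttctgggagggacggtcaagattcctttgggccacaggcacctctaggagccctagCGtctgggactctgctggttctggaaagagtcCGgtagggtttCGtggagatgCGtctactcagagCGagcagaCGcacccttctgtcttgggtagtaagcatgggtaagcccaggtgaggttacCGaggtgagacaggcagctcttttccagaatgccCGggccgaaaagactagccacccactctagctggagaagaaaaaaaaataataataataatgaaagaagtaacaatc
Stac2: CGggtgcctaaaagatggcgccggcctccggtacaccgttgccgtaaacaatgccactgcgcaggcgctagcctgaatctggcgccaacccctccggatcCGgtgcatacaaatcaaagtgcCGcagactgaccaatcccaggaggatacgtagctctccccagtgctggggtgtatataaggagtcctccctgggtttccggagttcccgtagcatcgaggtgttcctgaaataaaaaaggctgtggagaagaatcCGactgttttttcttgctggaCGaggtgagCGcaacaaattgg

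These stretches differ in build. The Stac2 window holds 19 CpGs in 300 bp, of which 6 were measured, and is 55.3% G and C, while the Pvrl2 window holds 7, of which 5 were measured, and is 53.3% G and C. In the group means every measured CpG of all 4 moved the same way as its window, which the choice of windows with large differences favours. At Pvrl2 the 5 CpGs rose by 20.9 to 48.1 points, at Ncapg2 the 6 rose by 25.7 to 42.8 and at Fgf5 the 8 rose by 5.18 to 47.3, on 11 to 60 reads per CpG and library. The groups overlapped at chr5:98683990 in the Fgf5 window, with 61.5% and 22.2% in shCtrl and 58.8% and 35.3% in shβcat #1. They also overlapped there at chr5:98684024, with 69.2% and 33.3% against 64.7% and 58.8%. At Stac2 the 6 CpGs differed by -47.8 to -18.2 points. CpGs this close share reads, and a read is counted at each CpG it spans. The letters CTTTGAT or their reverse complement ATCAAAG, the core of TCF and LEF sites, occur once in the Stac2 window and not in the other 3.

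The mean methylation of the 915426 CpGs was 32.6% and 32.4% in the shCtrl libraries and 33.9% and 33.7% in the shβcat #1 libraries. Both silenced libraries lay above both controls. The difference was 1.25 points, against SDs of 0.109 and 0.110 (n = 2 each). An exact permutation test over libraries, two-sided, gave p = 0.33, the smallest that 2 against 2 allows. Weighting CpGs by their reads gave 29.8% and 33.5% in shCtrl and 32.1% and 32.4% in shβcat #1, a difference of 0.652 points with overlapping groups. The rise was therefore seen for the average CpG. For the average read the gap between the shCtrl libraries leaves it undecided. CpGs at 90% or more were 17.3% and 17.2% of all CpGs in shCtrl and 20.4% and 20.1% in shβcat #1. Those between 10% and 90% were 27.3% and 27.0% in shCtrl and 24.7% and 24.8% in shβcat #1, while those under 10% were 55.4% and 55.8% in shCtrl and 54.9% and 55.1% in shβcat #1. Thus the silenced libraries had more nearly full and fewer intermediate CpGs as measured. Such shares also depend on depth, and the median reads per CpG were 28 and 28 in shCtrl and 35 and 32 in shβcat #1. The part of depth was not tested. CpGs at exactly 100% overlapped between groups, at 5.03% and 4.33% in shCtrl and 4.83% and 4.95% in shβcat #1.

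To ask where the rise lay by starting methylation, CpGs were put in classes by their level in the 2 YP-mESC libraries, the untransduced cells that received the hairpins, which take no part in the comparison. The rise was largest at CpGs that started intermediate. In the class of 30 to under 70%, 72053 CpGs averaged 60.1% and 60.2% in shCtrl and 65.1% and 64.7% in shβcat #1, 4.75 points higher with SDs of 0.0212 and 0.297. In the class of 70 to under 90% the levels were 87.2% and 87.2% in shCtrl and 90.03% and 89.9% in shβcat #1, 2.79 points higher. CpGs under 10%, 51.1% of all, were at 2.52% and 2.38% in shCtrl and 2.61% and 2.54% in shβcat #1, which is 0.13 points, with 0.059 without shCtrl replicate 2 and 0.201 without shCtrl replicate 1. The groups did not overlap in any of the 5 classes.

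The classes of 10 to under 30% and of 90 to 100% rose by 2.59 and 1.23 points. In absolute terms 35.5% of the summed difference came from the class of 70 to under 90% and 29.9% from the class of 30 to under 70%, which together are fewer than 1 in 4 CpGs. Set against the room left to full methylation, shCtrl cells lacked 39.8 points in the 30 to under 70% class and silenced cells had gained 11.9% of it. In the 70 to under 90% class the gain was 21.7% of 12.8 points, in the 90 to 100% class 18.3% of 6.72 points, and in the class under 10% 0.133% of 97.6 points. Single CpGs followed their class without being uniform. In the 30 to under 70% class 69.0% of CpGs were higher and 30.9% lower in the group mean, and 33.4% were higher without overlap against 8.98% lower without overlap.

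**Figure D1:**
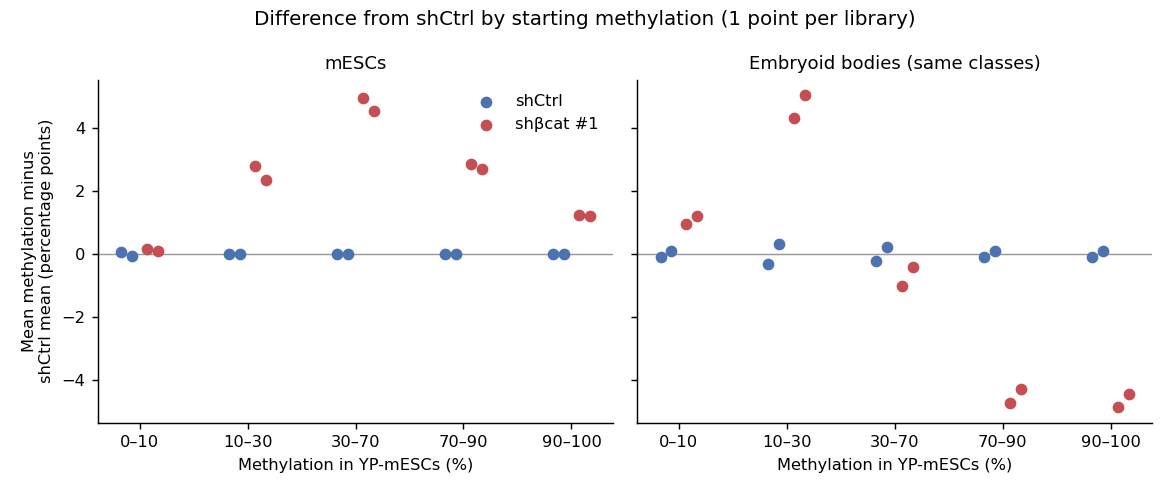
Mean methylation of each library minus the mean of its shCtrl libraries, in percentage points, for CpGs grouped by their methylation in YP-mESCs, with mESCs on the left and embryoid bodies on the right. Each point is 1 library. In mESCs the shβcat #1 points peak at 4.75 points above shCtrl in the 30 to 70% class, while in embryoid bodies they lie 4.52 and 4.67 points below it in the upper classes.

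The rise was graded by CpG density, the number of reference CpGs in the 200 bp around a site. CpGs with under 5 neighbours counted this way were at 77.3% and 77.2% in shCtrl and 80.3% and 80.1% in shβcat #1, 3.004 points higher. Those with 5 to 9 were 2.36 points higher, those with 10 to 14 were 1.26 points higher and those with 15 or more, 49.0% of all CpGs, were 0.19 points higher. At 15 or more the levels were 4.22% and 3.98% in shCtrl and 4.35% and 4.24% in shβcat #1, and the difference was 0.067 points without shCtrl replicate 2 and 0.312 without shCtrl replicate 1. Density and starting level go together, so the density classes were also compared inside the 30 to under 70% class. There the differences were 5.45, 4.81, 3.9995 and 2.95 points from the sparsest to the densest CpGs.

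By gene position, CpGs within 1 kb of a transcription start averaged 6.28% and 6.05% in shCtrl and 6.56% and 6.45% in shβcat #1, a difference of 0.34 points over 490772 CpGs, with 0.22 without shCtrl replicate 2. Coding exons were 1.79 points higher, UTRs 1.88, exons of noncoding transcripts 1.89, introns 2.30 and intergenic CpGs 2.56. Intergenic CpGs stood at 63.2% and 63.1% in shCtrl and 65.8% and 65.6% in shβcat #1. Promoters are mostly unmethylated, and at a matched start of 30 to under 70% their difference was 4.57 points, beside 3.63 in coding exons, 4.75 in introns and 5.48 in intergenic sequence. No groups overlapped in any of these classes. They did overlap at the 395018 promoter CpGs under 10% in YP-mESCs, with 2.21% and 2.07% in shCtrl and 2.26% and 2.20% in shβcat #1.

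With distance from a start the rise grew step by step. Within 250 bp levels were 4.82% and 4.59% in shCtrl and 4.98% and 4.88% in shβcat #1, 0.228 points higher, which is close to the gap between the 2 shCtrl libraries. Between 1 and 2 kb the difference was 1.33 points, between 10 and 50 kb 2.37 points and beyond 50 kb 2.86 points, where shCtrl stood at 75.1% and 75.0% and shβcat #1 at 78.0% and 77.8%. The rise was also spread along the chromosomes. Of 435 bins of 5 Mb with at least 500 CpGs, 435 were higher without overlap, by 0.453 to 4.25 points with a median of 1.26. The 19 autosomes and X gave 1.09 to 1.48 points.

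**Figure D2:**
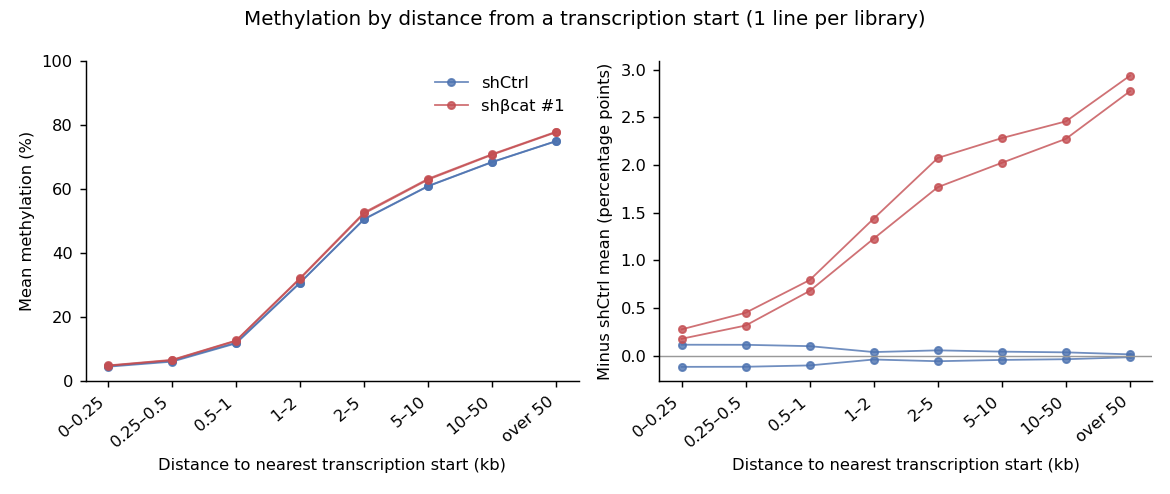
Mean methylation (left, %) and the same values minus the shCtrl mean (right, percentage points) for CpGs by distance to the nearest transcription start in kb. Each line is 1 library. Both shβcat #1 lines lie above both shCtrl lines at every distance, from 0.228 points within 250 bp to 2.86 points beyond 50 kb.

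Single CpGs were called different at an adjusted p under 0.05 (binomial model with a shared overdispersion, Benjamini-Hochberg) and over 25 points. In shβcat #1, 755 CpGs were higher, 0.0825% of those tested, and 257 were lower, 0.0281%. Counts of CpGs past 25 points without a test show how much of this is spread. Between the 2 shCtrl libraries 7242 CpGs differed by over 25 points one way and 9931 the other. Between a silenced and a control library 12845 to 14941 were higher by that much and 4193 to 5653 lower, so the asymmetry is larger than within a group. Without shCtrl replicate 1 the calls were 432 higher and 443 lower, and without shCtrl replicate 2 the lower calls were 922.

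Summed over 300 bp windows with at least 5 CpGs, 487 of 50992 windows were more methylated in shβcat #1 and 59 less, 0.955% and 0.116% of those tested (quasi-binomial F test with a dispersion moderated by limma, adjusted p under 0.05 and over 10 points). The test is against no difference and not against the genome-wide rise. Of the 487, 484 did not overlap between groups, nor did 59 of the 59, beside 26.3% and 11.8% of all windows. A call past 10 points nearly requires this, so it adds no support. For windows the moderated dispersion was its trend on reads alone, so a window's own replicate spread did not enter its p. Taking each window's own dispersion where larger left 330 higher and 41 lower. With a dispersion that follows the methylation level as well as the reads, 417 were higher. Both alternatives were chosen after seeing the data. The 487 lay on 21 chromosomes, at 0.604 to 1.43% of the windows of an autosome, and 18 of the 487 were followed directly by another. The count was 299 without shCtrl replicate 2, 182 without shβcat #1 replicate 1 and 252 without shβcat #1 replicate 2, and the lower count was 39 without shβcat #1 replicate 2.

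Windows called higher were most frequent in the intermediate classes. A call needs over 10 points, and CpGs at 90 to 100% had 6.72 points left in shCtrl, so this ranking follows in part from the limit. In simulations whose noise grew towards intermediate levels, the trend on reads under-estimated the spread of intermediate windows, which favours calls there. The part of this in the ranking was not tested. Of windows at 30 to under 70% in YP-mESCs 5.87% were called higher, and of those at 10 to under 30% 2.96%. Shares were 1.18% at 70 to under 90%, 0.184% at 90 to 100% and 0.0744% under 10%. The windows called higher were sparser in CpGs than the tested windows, with a median of 8.8 against 14.9 CpGs in 200 bp. By position 175 were intergenic, 104 in promoters, 101 in introns, 92 in coding exons, 9 in UTRs and 6 in other exons. At a matched start of 30 to under 70%, 6.03% of promoter windows, 4.25% of coding exon windows, 5.48% of intron windows and 7.45% of intergenic windows were called higher. The median higher window went from 51.0% to 67.6%, with 48.5% in YP-mESCs. YP-mESCs were nearer to shCtrl in 357 of the 474 with a value and below all 4 libraries in 239. In those 239 the direction of the call makes shCtrl the nearer group. Among the lower windows the median was 46.2% in shCtrl, 29.7% in shβcat #1 and 30.5% in YP-mESCs, and YP-mESCs were nearer to shβcat #1 in 36 of 57. They were below all 4 libraries in 27 of these, where the call makes shβcat #1 the nearer. Nearness was not counted over all tested windows, so these counts add no support. The letters CTTTGAT or ATCAAAG stood in 25 of the 487 higher windows, 5.13%, and in 2.26% of all tested windows. They stood in 2 of the 59 lower windows, 3.39%. Within the 30 to under 70% class the shares were 5.99% of higher, 7.14% of lower and 3.32% of all windows.

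**Figure D3:**
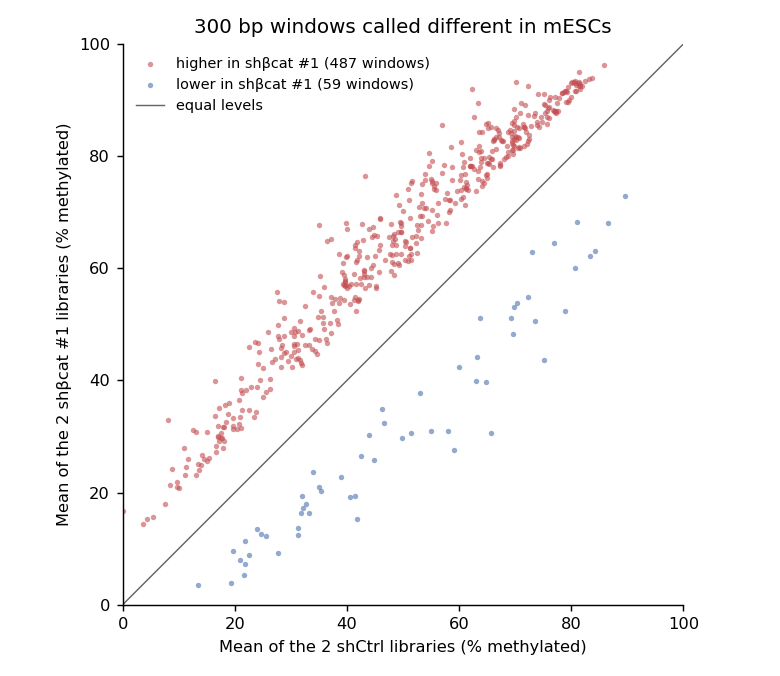
Mean methylation of the 2 shCtrl libraries (x, %) and of the 2 shβcat #1 libraries (y, %) for the 300 bp windows called different. Each point is 1 window, the line marks equal levels and the calls require over 10 points. The 487 higher windows span nearly the whole range of shCtrl levels around a median of 51.0%, and the 59 lower ones around 46.2%.

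Of the 8 higher windows with the largest differences, the Pvrl2 window shown above was at 43.7% and 42.7% in shCtrl and 73.7% and 79.1% in shβcat #1, 33.2 points higher (adjusted p = 7.11e-09). The Ncapg2 window went from 37.6% and 32.3% to 67.4% and 67.9% (adjusted p = 2.09e-10). A coding exon of Shroom3, an actin-binding protein of apical constriction, went from 60.6% and 64.0% to 93.2% and 90.8% at chr5:93348601-93348900 (adjusted p = 5.46e-11). Each was picked for groups that do not overlap, so the separation adds no support. YP-mESCs, at 45.8%, 33.2% and 53.1%, were nearer to shCtrl. With the replicate number as a block in the F test, the Pvrl2 window lost its call (adjusted p = 0.0683).

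The Fgf5 window was at 42.8% and 29.998% in shCtrl and 65.2% and 64.5% in shβcat #1, with 28.6% in YP-mESCs (adjusted p = 1.77e-13). With its own dispersion where larger the adjusted p of the F test was 7.8e-07. The whole Fgf5 promoter, most of whose 54 CpGs were unmethylated, went from 11.5% and 8.57% to 16.6% and 16.1%, 6.31 points, which is under the limit of a call. The noncoding RNA gene 5330411J11Rik had an exon window at chr2:59221201-59221500 that went from 42.6% and 37.0% to 71.4% and 64.7%. Lrrc6, needed for assembly of dynein arms in cilia, had a window over its start at chr15:66332401-66332700 that went from 29.7% and 25.5% to 60.9% and 50.5%. Here YP-mESCs were at 11.4%, so that the control libraries too were above the starting cells.

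The remaining 2 were an intron of Reep3, a protein of the endoplasmic reticulum membrane, at chr10:66508201-66508500, and an intergenic window 65742 bp from the nearest start, that of Gm16862, at chr17:45959401-45959700. The Reep3 window was at 65.1% and 48.7% in shCtrl and 87.7% and 83.3% in shβcat #1, and the intergenic one at 40.5% and 33.8% against 63.5% and 66.9%. Both lost their call without shCtrl replicate 2, with adjusted p of 0.197 at most for Reep3 and 0.152 at most for the other over the alternatives tried, while the other 6 windows kept theirs with each library left out.

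Of the lower windows, a window in a coding exon of Nefm, the medium neurofilament subunit, was at 56.7% and 61.3% in shCtrl and 26.4% and 28.7% in shβcat #1, with 44.9% in YP-mESCs (adjusted p = 4.88e-19). In all, 5 windows at Nefm on chromosome 14 were called lower, by 12.8 to 31.5 points. YP-mESCs were at 40.6 to 51.1% there. Nefm was thus less methylated over its promoter and first exon in the silenced cells, on a background that was mostly higher.

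The 2 adjoining windows upstream of Stac2 were at 70.9% and 60.5% in shCtrl against 28.6% and 32.8% in shβcat #1, and at 70.9% and 79.4% against 43.8% and 43.6%. A coding exon of Mpp2, a membrane scaffold protein, went from 41.4% and 42.3% to 15.5% and 15.0% at chr11:101922601-101922900. An intron of Catsperg1, a subunit of the sperm calcium channel, went from 60.1% and 55.9% to 36.3% and 25.8% at chr7:29997601-29997900. All 4 were picked for groups that do not overlap, so the separation adds no support. With the replicate number as a block in the F test, the first Stac2 window lost its call (adjusted p = 0.0526).

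Smaller differences were seen in a coding exon of Mgat4b, an enzyme that branches N-glycans, which went from 66.5% and 63.3% to 36.6% and 42.8% at chr11:50047501-50047800, and 13111 bp from the nearest start of Pfdn4, a prefoldin subunit, from 77.1% and 80.7% to 55.4% and 49.3% at chr2:170353501-170353800. The 4 lower windows nearest to Gm5146 on chromosome 17 fell by 15.1 to 24.0 points from shCtrl means of 27.7 to 54.9%. YP-mESCs stood at 2.51 to 14.2% in them, below both groups in the largest, which went from 50.8% and 59.1% to 25.6% and 36.2%. That window lost its call without shCtrl replicate 2 and without shβcat #1 replicate 1, and the Mgat4b window without shβcat #1 replicate 1, with an adjusted p of up to 0.263 and 0.163 over the alternatives.

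**Figure D4:**
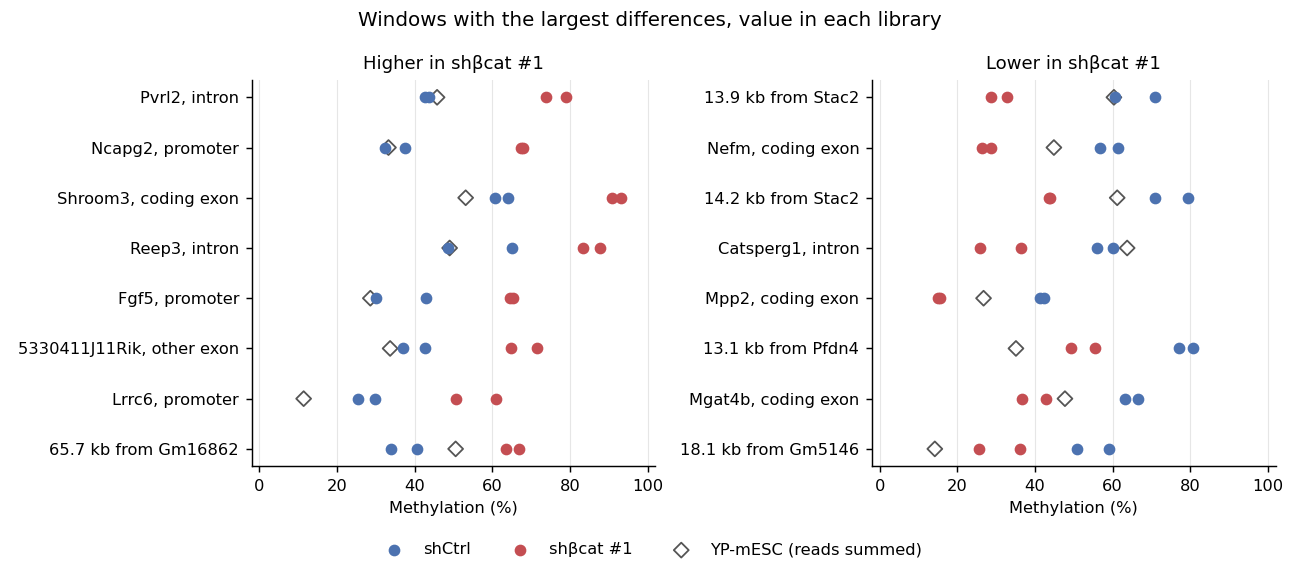
Methylation (%) in each library of the 8 higher and the 8 lower windows with the largest differences. Filled points are single libraries and open diamonds the summed reads of YP-mESCs. Windows were picked so that the 2 shCtrl and 2 shβcat #1 points do not overlap. YP-mESCs lie beside shCtrl at Pvrl2 (45.8%) and beyond it at Lrrc6 (11.4%).

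Embryoid bodies, aggregates in which mESCs differentiate, were made with the same hairpins. They share no library with the mESCs and were used to ask whether these windows moved there too. Of the higher windows 428 had a value, and the median difference in embryoid bodies was 1.49 points, with 264 positive and 164 negative. Of them 36 were called higher and 6 lower, beside 2.6% and 1.03% of all windows in embryoid bodies. Of the lower windows 53 had a value, with a median of -6.80 points, 42 negative and 14 called lower. The difference between stages was tested in a model of all 8 libraries. It passed for 632 of 44845 windows, 1.41%, for 83 of 426 higher windows and for 6 of 52 lower ones. The higher and lower windows were picked from mESC libraries that also enter this model. High shares among them, and a small p at any of them, are therefore favoured by the choice. At Ncapg2 silencing gave 4.75 points in embryoid bodies beside 32.7 in mESCs (adjusted p of the difference 0.0225), whereas at Nefm it gave -18.4 points beside -31.5 (adjusted p = 0.482).

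Promoters were taken as 1 kb either side of a start, with at least 5 CpGs. In shβcat #1, 40 of 14486 promoters were more methylated and 5 less, 0.276% and 0.0345% of those tested, and the median promoter differed by 0.13 points. Promoters that started intermediate were called more often, 2.62% of those at 30 to under 70% in YP-mESCs and 0.0570% of those under 10%. With a dispersion that follows the level as well as the reads, an alternative chosen after seeing the data, 21 were higher and 3 lower. Without shCtrl replicate 1 the higher count was 66, and without shCtrl replicate 2 the lower count was 8. In the main test B230217C12Rik was counted under 2 gene identifiers, and Ribc2 and Smc1b share a promoter.

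Lrrc6 led the higher promoters, with 32.2% and 28.0% in shCtrl and 61.3% and 55.2% in shβcat #1 over 7 CpGs (28.1 points, adjusted p = 0.000115). Plce1, phospholipase C epsilon, went from 68.3% and 71.8% to 93.0% and 93.4% over 5 CpGs (adjusted p = 0.000157). Spag8, a sperm-associated antigen, went from 35.0% and 37.9% to 57.7% and 58.9% over 12 CpGs (adjusted p = 0.000157). Lrrc6 alone was past a limit of 25 points. All 3 kept their calls in the other alternatives that gave a value, and Plce1 had none at 20 reads.

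Nudt12, a peroxisomal NADH pyrophosphatase, went from 30.2% and 22.6% to 45.9% and 49.5%. Lrat, which esterifies retinol, went from 42.2% and 40.7% to 61.6% and 60.02%, and 6030422M02Rik from 49.1% and 53.2% to 69.7% and 70.9%. None of the 3 was past 25 points, and all kept their calls in the other alternatives that gave a value, Nudt12 having none at 20 reads. Egf, epidermal growth factor, went from 42.9% and 46.2% to 58.4% and 70.3%, and lost its call without shβcat #1 replicate 2 and with the level-dependent dispersion (adjusted p up to 0.186). Prdm8, a transcriptional repressor and the neighbour of Fgf5 on chromosome 5, went from 27.4% and 30.3% to 49.95% and 46.0% over 12 CpGs (adjusted p = 0.000157), and lost its call at 500 bp either side of the start (adjusted p = 0.329).

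The 5 lower promoters were those of Pmaip1, Thbs4, Itgbl1, Nefm and Pramef8. Pmaip1, which encodes the BH3-only protein NOXA that promotes apoptosis, went from 61.7% and 58.0% to 42.0% and 39.0% over 40 CpGs (-19.4 points, adjusted p = 2.29e-05). In a stretch of 31 of these cells' CpGs at its start, YP-mESCs were at 15.7% and 21.4%, below both groups. Nefm went from 28.0% and 28.8% to 12.7% and 12.7% over 51 CpGs (-15.7 points, adjusted p = 7.74e-09). Thbs4, a thrombospondin of the extracellular matrix, went from 69.9% and 61.1% to 48.6% and 45.1%.

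Itgbl1, an integrin beta-like protein, went from 33.5% and 32.998% to 14.03% and 18.7%, and Pramef8, of the PRAME family, from 57.4% and 61.2% to 42.8% and 46.9%. Thbs4 and Pramef8 lost their calls with the level-dependent dispersion, at adjusted p up to 0.106 and 0.101 over the alternatives, and the other 3 kept theirs in the alternatives other than the limit of 25 points, which left 0 lower promoters. At 20 reads per CpG the difference at Pmaip1 was -12.2 points. PRAME genes form a family of similar copies, so reads at Pramef8 may be shared with relatives.

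Gene bodies, taken outside all promoters, shared in the broad rise. It was not confined to them, and by gene position it was largest in intergenic CpGs, at 2.56 points. The median level of gene bodies in shCtrl was 78.7%, and the median of 10044 bodies was 2.03 points higher in shβcat #1. Of them 54.6% were higher without overlap and 4.79% lower without overlap. Few were called singly, 20 higher and 3 lower, 0.199% and 0.0299% of those tested. That count was unstable. It was 95 without shCtrl replicate 1, 85 without shCtrl replicate 2, 4 without shβcat #1 replicate 1 and 1 without shβcat #1 replicate 2, and the lower count ran from 1, without shβcat #1 replicate 2, to 6, without shCtrl replicate 1, with 5 without shCtrl replicate 2.

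The body of 5330411J11Rik was at 40.8% and 39.8% in shCtrl and 70.04% and 65.5% in shβcat #1 over 12 CpGs (adjusted p = 0.000387). Pias3, a SUMO ligase that restrains STAT3, the factor LIF acts through, went from 21.2% and 19.1% to 46.3% and 40.5% over 8 CpGs. Fgg, the gamma chain of fibrinogen, went from 43.8% and 38.9% to 60.3% and 60.3%. Bodies were picked for groups that do not overlap, so the separation adds no support.

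Zfp560, a zinc finger gene, went from 50.1% and 49.5% to 66.1% and 67.8%, and Opa1, the GTPase that fuses inner mitochondrial membranes, from 66.6% and 69.5% to 86.0% and 83.3%. Pias3, Fgg, Zfp560 and Opa1 each lost their call without either shβcat #1 replicate (adjusted p up to 0.165, 0.252, 0.267 and 0.267), and 5330411J11Rik kept it in the alternatives tried. The lower bodies were Nefm, from 59.8% and 64.9% to 31.7% and 33.9%, Catsperg1, from 62.3% and 57.9% to 39.4% and 31.0%, and Crmp1, a collapsin response mediator of axon guidance, from 34.5% and 37.6% to 24.8% and 22.6%. Nefm was the only gene called in both its promoter and its body, and its promoter was not past the 25-point limit but otherwise both kept their calls in the alternatives tried. Catsperg1 lost its call without shβcat #1 replicate 2 and Crmp1 without either shβcat #1 replicate.

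**Figure D5:**
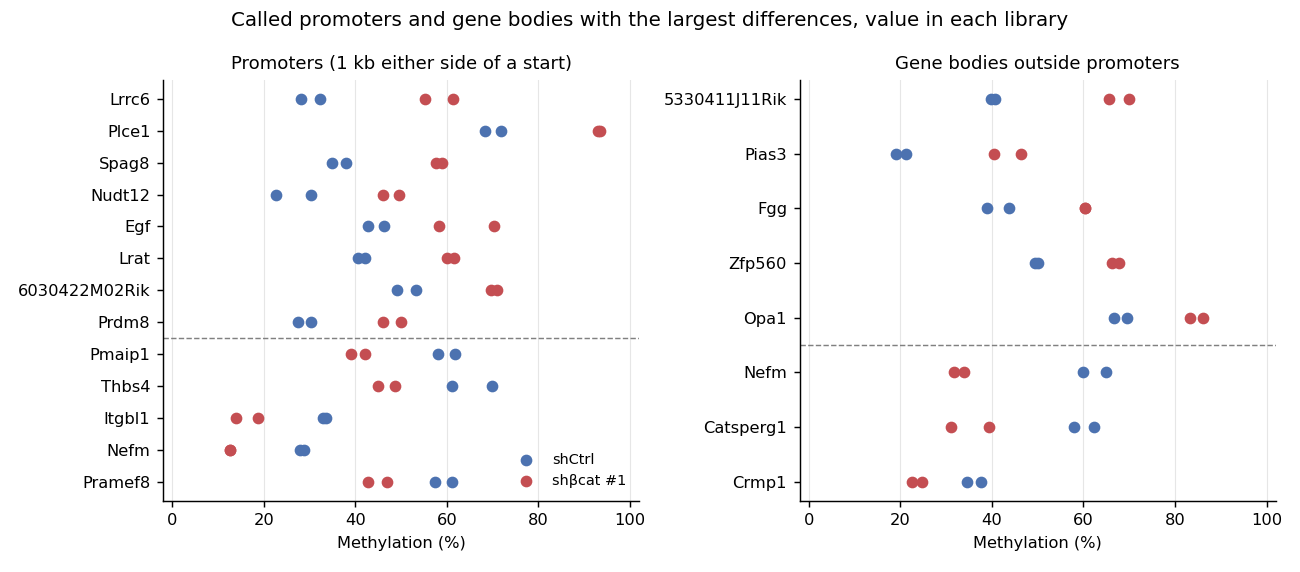
Methylation (%) in each library of the called promoters (left) and gene bodies (right) with the largest differences. Each point is 1 library and the dashed line parts higher from lower genes. All were picked so that the groups do not overlap. Nefm stands below the line in both panels, at 12.7% in shβcat #1 in its promoter.

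Genes of the methylation machinery were looked at next. The background for this and the following lists is the count over all genes. In the quasi-binomial F test 998 of 14486 promoters and 2139 of 10044 bodies had an unadjusted p under 0.05. Of 12 writers and imprint protectors 9 promoters and 8 bodies were tested and none was called by the quasi-binomial F test or with a shared overdispersion (0 and 3 at an unadjusted p under 0.05), with medians of 0.31 and 2.49 points beside 0.13 and 2.03 over all genes. Dnmt1, the maintenance methyltransferase, went in its body from 78.1% and 73.9% to 81.5% and 82.0% (adjusted p = 0.0732). Of 8 demethylation genes 7 promoters and 5 bodies were tested and none was called by the F test (1 and 2 at an unadjusted p under 0.05), with medians of -0.294 and 1.51 points. Apobec1, a cytidine deaminase, went in its body from 28.7% and 28.1% to 43.7% and 38.5% (12.7 points, adjusted p = 0.0561), and was called only with a shared overdispersion. The Tet1 promoter was at 22.05% and 12.4% in shCtrl and 12.7% and 9.73% in shβcat #1, with overlapping groups.

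No Wnt gene was called among 31 promoters and 31 bodies of 34 ligands and receptors, 20 promoters and 18 bodies of 20 genes of signal transduction and the destruction complex, 15 promoters and 12 bodies of 19 inhibitors, and 16 promoters and 15 bodies of 18 target genes. With a shared overdispersion none was called either. At an unadjusted p under 0.05 there were 4, 0, 0 and 1 promoters and 3, 2, 3 and 4 bodies. Over all genes 998 of 14486 promoters and 2139 of 10044 bodies were under that limit. The median differences of these Wnt lists were 0.31, 0.03, 0.09 and 0.37 points in promoters and 1.29, 1.73, 1.66 and 0.93 points in bodies, beside 0.13 and 2.03 over all genes. The promoter with the smallest p was that of Wnt1, a ligand, at 7.08% and 7.81% in shCtrl and 10.2% and 10.7% in shβcat #1 (adjusted p = 0.0902). Sfrp1, a secreted antagonist, went in its body from 77.0% and 79.9% to 82.6% and 90.6% (adjusted p = 0.0658), and the body of Tcf7l1, the repressive TCF of mESCs, from 57.3% and 57.2% to 63.1% and 60.5% (adjusted p = 0.115).

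Of 24 pluripotency genes 15 promoters and 14 bodies were tested and none was called by the F test or with a shared overdispersion (2 and 4 at an unadjusted p under 0.05), with medians of 0.21 and 0.57 points. Prdm14, a regulator of naive pluripotency, passed the p limit in its body at 45.9% and 45.6% in shCtrl and 50.2% and 48.8% in shβcat #1, but its 3.72 points are under the limit of 10 (adjusted p = 0.0385). Esrrb, a naive factor and Wnt target, was at 9.58% and 9.46% against 11.9% and 12.8% in its promoter (adjusted p = 0.671). Of 47 lineage transcription factors 43 promoters and 32 bodies were tested and none was called by either (4 and 4 at an unadjusted p under 0.05), with medians of 0.38 and 0.96 points. Sox17, an endoderm factor, had a promoter at 16.5% and 17.7% in shCtrl and 25.3% and 25.3% in shβcat #1 (adjusted p = 0.121). Of 13 differentiated cell markers 9 promoters and 10 bodies were tested and none was called by either (1 and 4 at an unadjusted p under 0.05), and the body of Nes, the neural progenitor filament nestin, went from 26.5% and 27.5% to 40.2% and 39.2% (adjusted p = 0.0796).

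Germline and meiosis genes, many of which carry methylated promoters in mESCs, had a median of 49.3% in shCtrl over 19 tested promoters of 26 genes. None was called by the F test or with a shared overdispersion, 4 had an unadjusted p under 0.05, and the median difference was 1.37 points. None of 5 bodies was called by either, and 1 had an unadjusted p under 0.05. Sohlh2, a germ cell transcription factor, went down from 85.0% and 85.0% to 80.1% and 76.9%, which is under 10 points (adjusted p = 0.0449). Among the 4 neurofilament genes, all with a tested promoter, Nefm was called lower, while Nefl, its neighbour in the genome, was at 0.372% and 0.287% in shCtrl and 0.497% and 0.263% in shβcat #1.

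Of 36 imprinted genes 29 promoters were tested and 1 was called higher, beside 0.276% of all promoters. Mcts2, a retrogene inside H13, went from 36.0% and 40.04% to 52.3% and 48.2% over 23 CpGs (12.2 points, adjusted p = 0.0395), over the same CpGs as the H13 ICR, which was not called among the ICRs (adjusted p = 0.140). None of 21 bodies was called by the F test, with 3 at an unadjusted p under 0.05, and Impact alone was called with a shared overdispersion. Over the ICRs themselves, 0 of 19 were called by the quasi-binomial F test and 2 had an unadjusted p under 0.05. For ICRs the moderated dispersion equalled the shared value, 5.41, so a shared overdispersion gives the same test. There were 13 higher and 6 lower, with a median of 1.49 points, and 4 were higher without overlap, beside 26.3% of windows. Impact, which carries maternal methylation, went from 36.9% and 47.3% to 53.0% and 59.6% (14.1 points, adjusted p = 0.0542).

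By the rule of the study, 10 or more CpGs with gaps of under 2 kb that each moved over 25 points one way, 0 regions were higher and 3 were lower, and these carry no test. Without shCtrl replicate 2, 3 regions were higher, and without each other library 1 was. The 3 lower regions lay at Stac2, Nefm and Pmaip1. The Stac2 stretch at chr11:97928701-97929066 was at 70.9% and 70.7% in shCtrl and 36.8% and 38.6% in shβcat #1 over 13 CpGs. The Nefm stretch was at 33.9% and 35.2% against 15.9% and 15.7% over 56 CpGs. The Pmaip1 start at chr18:66618094-66618594 was at 58.5% and 50.8% against 34.1% and 29.8% over 31 CpGs. YP-mESCs were at 15.7% and 21.4% at the Pmaip1 start, on 15 and 31 CpGs, below both groups. With at least 5 changed CpGs instead, 20 regions were higher and 6 lower. The study also lists for these cells a stretch at Zfp316, a zinc finger gene, at chr5:144014723-144017039. It was at 42.7% and 42.3% in shCtrl and 47.6% and 44.3% in shβcat #1 over 185 CpGs, with 5 of them up by over 25 points. YP-mESCs were at 5.06% and 5.26% in the Zfp316 stretch, on 134 and 171 CpGs, below both groups. In embryoid bodies the Nefm stretch was at 32.9% and 41.2% with shCtrl and 24.0% and 27.1% with shβcat #1, and the Stac2 stretch at 68.3% and 80.3% against 55.2% and 56.7%, each over the CpGs that library covered.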

How the data were processed

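RRBS libraries of shCtrl and shβcat #1 mESCs (2 each), of the matching embryoid bodies and of YP-mESCs were used; libraries of old-passage cells and clones were not analysed here. Libraries were made with the NuGEN Ovation RRBS Methyl-seq kit. Per the submitters' processing notes, CASAVA 1.8.2, Trim Galore 0.2.8, Bismark 0.7.9 and mm9 were used. The authors deposited, per cytosine, the count of covering reads and the percent that was methylated, not normalized and not pooled, for cytosines with at least 10 reads. Removal of duplicate reads is not given in the sources used here. YP-mESC replicate 2 had no chromosome 13.

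Methylated reads were recovered from count and percent, strands were summed, and CpGs with 10 reads in all 4 libraries were kept (at 10 reads a level moves in steps of 10 points). Genes were from GENCODE vM1 on NCBIM37, on which all 1320646 CpG positions were a CG. CpGs were tested with a binomial model with 1 overdispersion. Windows, promoters, bodies and ICRs were tested on summed reads with a quasi-binomial F test, with Benjamini-Hochberg adjustment over all features. Its dispersion was moderated with limma 3.58.1 (R 4.3.3) along reads. For ICRs it had no trend on reads and took the shared value. For windows it took the value of the trend, without a window's own spread. Levels of regions are means over CpGs. Scripts used Python 3.11.15 and were tested on simulated data. Where the simulated noise grew towards intermediate levels, the trend on reads under-estimated the spread of intermediate windows. Named are the 8 windows, 8 promoters and 5 bodies with the largest called differences per direction without overlap, called list members, and otherwise members with a small p. The libraries and the 13 gene and marker lists were chosen with earlier results of these data known. Alternatives were read and CpG minima, difference limits, promoter widths, dispersions, a replicate block and leaving out each library. The sequence at Nefm is not reported here.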

Additional observations from a re-analysis of the deposited data

Results flagged for a closer look

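In the classes from 30% upwards, the mean difference of shβcat #1 from shCtrl had opposite signs in mESCs and embryoid bodies. At CpGs of 30 to under 70% in YP-mESCs the difference was -0.728 points in embryoid bodies, with levels of 79.8% and 80.2% in shCtrl and 79.0% and 79.6% in shβcat #1, beside 4.74 points in mESCs over the same 61830 CpGs. At 70 to under 90% it was -4.52 points in embryoid bodies beside 2.77 in mESCs, and at 90 to 100% -4.67 beside 1.16. These were picked out because both silenced libraries lay above both controls in mESCs and below them in embryoid bodies; the difference of the class means was not tested. In the classes under 10% and of 10 to under 30% both stages rose, by 1.08 and 4.69 points in embryoid bodies.

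Window by window, the test of the difference between stages passed for 632 of 44845 windows (quasi-binomial F test of the interaction over 8 libraries). In 453 the silencing difference was above that in embryoid bodies, and in 179 below. In 433 it was positive in mESCs and negative in embryoid bodies, and in 140 the reverse. At a minimum of 20 reads a CpG, 368 windows lay above and 209 below.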

How the results depend on the processing

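The mean rise kept its direction in every alternative, at 0.652 points when weighted by reads. Classes set from the shCtrl mean, whose sampling error enters the difference, gave 0.322 points under 10%, 4.54 at 70 to under 90% and -0.517, reversed, at 90 to 100%. Classes from shCtrl replicate 1 with the difference taken to shCtrl replicate 2 gave 2.12, 5.21, 3.47 and 1.30 points from 10 to under 30% upwards. At 20 reads the 90 to 100% class gave 1.07 and noncoding exons 1.96 points (added after seeing the data).

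Calls depended on the limits. At 20 reads there were 215 CpGs higher and 39 lower, 262 and 28 windows, 3 lower promoters, 46 and 5 bodies, and 1 lower region by the study rule. Over 25 points left 14 and 7 windows and 1 and 0 promoters; over 5 points gave 8 lower promoters and 37 higher bodies, and over 10 points 400 lower CpGs. At least 3 CpGs gave 1148 and 90 windows, and 5 changed CpGs 20 and 6 regions. Promoters of 500 bp and 2 kb gave 24 and 26 higher. A shared overdispersion gave 66 higher bodies. Of dispersions added after seeing the data, the level-dependent one gave 21 and 3 promoters and 37 higher bodies. Each feature's own, where larger, gave 330 and 41 windows and 13 higher bodies. Leaving out 1 library gave 432 to 718 CpGs higher and 230 to 922 lower, 1 to 3 and 2 to 4 regions, 182 to 404 and 39 to 53 windows, 30 to 66 and 6 to 8 promoters, and 1 to 95 and 1 to 6 bodies. Of 394 alternatives for named items 359 kept the call, 35 lost it and 0 reversed, not counting the 25-point limit; the cause of the losses was not tested.

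Same-numbered replicates did not deviate together (r = 0.003). With the replicate number as a block there were 492 higher CpGs, 20 higher and 8 lower windows, and 126 and 6 bodies. Depth limits single CpGs to steps of 10 points at 10 reads.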

Other observations

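A few genes held several called windows. Myo10, a myosin that moves along filopodia, had 4 intronic windows on chromosome 15 that were 10.2 to 18.6 points higher in shβcat #1. Sept9, a septin of the cytoskeleton, had 3 intronic windows that rose from shCtrl means of 41.3 to 45.8% to shβcat #1 means of 58.9 to 68.8%. Nearest to Slc39a10, a zinc transporter, 3 intergenic windows were 13.6 to 18.6 points higher, and Mid1, a microtubule-binding ubiquitin ligase on X, had 3 windows over coding exon and UTR that were 14.03 to 17.4 points higher. These were picked because their counts were the highest, after the values were seen.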
